A study of Mus musculus with 6 samples.

Results

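The genes described here encode the machinery that copies chromosomal DNA. The 47 genes were chosen by name: the subunits of the complexes that load, start and drive the replication fork, from the origin recognition complex to DNA ligase 1. All 47 were found among the 37991 genes counted, and all passed the filter on low counts that left 16683 genes to test. Expression was measured by RNA-seq of polyadenylated RNA from primary pre-B cells, B-lineage precursors that have not yet put a complete antibody on their surface. Cells came from the bone marrow of C57BL/6 mice and were sorted by flow cytometry. The study's methods give the gate as high B220 with low IgM and low IgD for wild type and premalignant cells, and as B220+ IgM- IgD- for malignant cells, so gate and malignancy cannot be told apart. Wild type libraries came from mice without the transgene aged 4 to 6 weeks. Premalignant libraries came from heterozygous Eμ-Myc/+ mice of the same age, before lymphoma, and malignant libraries from Eμ-Myc/+ mice aged 10 to 20 weeks that had developed spontaneous lymphoma. The Eμ-Myc transgene drives Myc in B-lineage cells from an immunoglobulin heavy chain enhancer, so its carriers differ from wild type at both stages. Each stage had 2 libraries, described as biological replicates from individual animals. Wild type and premalignant mice were females and malignant mice of both sexes, and malignant mice were also older, so age, sex and malignancy cannot be told apart. Lymphomas of this model can arise from cells with or without surface IgM, and the sort kept those low in or without it.

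Replication starts in separate steps. In G1 phase the origin recognition complex (ORC), CDC6 and CDT1 load the ring of MCM2 to MCM7 onto DNA, a step called licensing that geminin blocks by binding CDT1. In S phase the kinase CDC7 with DBF4, helped by MCM10, turns the ring into an active helicase by recruiting CDC45 and the GINS complex. DNA polymerase alpha with primase then lays down primers, RFC loads the sliding clamp PCNA, polymerases epsilon and delta extend the leading and lagging strands, RPA covers single-stranded DNA, and FEN1 and LIG1 finish the lagging strand. Many of these genes are known as targets of E2F transcription factors, and cycling cells express them highly.

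The promoters of the genes were compared for the letters that E2F and MYC are known to bind, because the stages differ in Myc. RefSeq promoter sequences (GRCm38.p6, 250 bases before to 50 bases after the start) were given for 39 of the 47 genes and for 27025 genes in all. The words searched on both strands were TTTCCCGC, TTTGGCGC, TTTCGCGC, TTCCCGCC and TTGGCGCC for E2F and CACGTG and CACGCG for MYC. TTTCCCGC can overlap TTCCCGCC, and TTTGGCGC can overlap TTGGCGCC. At least 1 E2F word stood in the promoters of 21 of the 39 genes (53.8%), against 8.18% of the 10066 tested genes in the table and 4.65% of all genes in it. CACGTG stood in 8 of the 39 (20.5%), against 11.4% of the tested genes and 8.09% of all genes. CACGCG stood in 6 (15.4%), against 18.9% and 10.5%. The median GC content of these promoters was 61.3% for the 39 genes, 60.0% for the tested genes and 52.8% for all genes. A match of letters is a description and not a bound site, and no match says only that the letters are not in this window.

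The following stretches show where the E2F words lie in genes of licensing and of the helicase, with the words in capitals. Each is printed 5′ to 3′ on the strand of its gene, with up to 12 bases on either side. They are at chr4:108579415-108579446 for Orc1, chr11:98908001-98908032 for Cdc6, chr8:122568035-122568064 for Cdt1, chr8:75109344-75109379 for Mcm5, chr1:128359733-128359827 for Mcm6 and chr5:138171855-138172060 for Mcm7, all on GRCm38.p6. Orc1, Cdc6, Cdt1 and Mcm5 lie on the plus strand, Mcm6 and Mcm7 on the minus strand. Mcm7 has 2 starts in the table, of which 1 is shown.
Orc1: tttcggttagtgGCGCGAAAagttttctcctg
Cdc6: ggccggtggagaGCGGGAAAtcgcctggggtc
Cdt1: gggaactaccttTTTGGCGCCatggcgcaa
Mcm5: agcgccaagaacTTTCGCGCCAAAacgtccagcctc
Mcm6: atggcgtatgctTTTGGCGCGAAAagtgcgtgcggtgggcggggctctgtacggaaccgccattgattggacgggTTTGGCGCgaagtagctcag
Mcm7: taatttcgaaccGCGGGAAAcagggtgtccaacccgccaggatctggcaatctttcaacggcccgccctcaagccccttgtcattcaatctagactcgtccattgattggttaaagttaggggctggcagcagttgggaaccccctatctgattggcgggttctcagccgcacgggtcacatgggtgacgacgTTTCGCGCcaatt

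The capitals begin 27 bases before the start in Orc1, 138 bases before it in Cdc6 and 153 bases before it in Mcm5, and 32 bases after it in Cdt1. In Mcm5 and at the first site of Mcm6, 110 bases before the start, 2 words overlap, so that the run reads as an E2F word on each strand. Such words were also found in genes whose expression did not pass the test. Pold1 (chr7:44548766-44548789, minus strand) has them 38 bases after the start, and Rfc3 (chr5:151651189-151651230, minus strand) has a pair around its start. Rpa1 (chr11:75348434-75348463, minus strand) is shown as a gene with the MYC word CACGTG and no E2F word.
Pold1: ggcgtatcttgtGGCGGGAAAagc
Rfc3: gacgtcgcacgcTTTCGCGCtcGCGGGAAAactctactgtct
Rpa1: cctcggaagagtCACGTGctctgcctgccg

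The 6 libraries held between 30031100 and 53453055 counts on genes, with the 3 replicate 1 libraries deeper than the 3 replicate 2 libraries. The genes had between 291 and 97909 counts in a library, so counting error was small for all of them. Levels are given as CPM, the counts of a gene scaled to library size with TMM factors, in the order wild type replicates 1 and 2, then premalignant 1 and 2, then malignant 1 and 2. Calls were made with edgeR's quasi-likelihood test and needed a Benjamini-Hochberg adjusted p of at most 0.1 together with a log2 fold change of 0.5 or more in size. With 2 libraries against 2, an exact two-sided permutation test of 1 gene cannot go under p = 0.333. The adjusted p-values therefore draw on a spread estimated over many genes. Myc, the gene of the transgene (chromosome 15, 61816946 to 61821929 on NCBIM37), was at 33.7 and 41.4 CPM in wild type, 1164 and 1155 CPM in premalignant and 1731 and 1577 CPM in malignant cells.

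The wild type libraries differed from each other. Of the 47 genes, 46 were lower in wild type replicate 2 than in replicate 1, with a median log2 difference of -0.42, and Pold1 was the exception. The same held for all 13 genes of a list of mitotic cycling genes, with a median of -0.63. In the same library all 8 myeloid and all 7 erythroid marker genes were higher. Their summed levels were 790 and 1734 CPM for myeloid and 305 and 1236 CPM for erythroid markers in the wild type libraries, between 56.7 and 254 CPM and between 63.5 and 175 CPM in the other 4. T and NK cell markers summed to 92.0 and 45.8 CPM in wild type and to between 1.34 and 32.2 CPM in the others, with Cd3e at 0 in premalignant replicate 2. Against wild type, all 8 myeloid, 5 of 7 erythroid and 4 of 6 T and NK markers were called lower in premalignant cells, and 8, 5 and 5 in malignant cells. Of 12 pre-B markers, 11 were called lower in premalignant and 11 in malignant cells. Of all tested genes, 20.3% and 24.3% were called lower at these stages. Both libraries of either stage were below both wild type libraries for all 12 pre-B markers, against 41.2% and 36.4% of all tested genes. Among those called lower at both stages were Cd79a, Cd79b and Pax5, which mark the B lineage and stayed at 126 CPM or more in every library, and Rag1, Il2ra, Igll1 and Vpreb1, genes of the pre-B stage. Vpreb2 was at 0 in malignant replicate 1. In bulk RNA, fewer cells of a type and less RNA per cell cannot be told apart, and the part of these other cells and stages in the replication results was not tested.

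**Figure D1:**
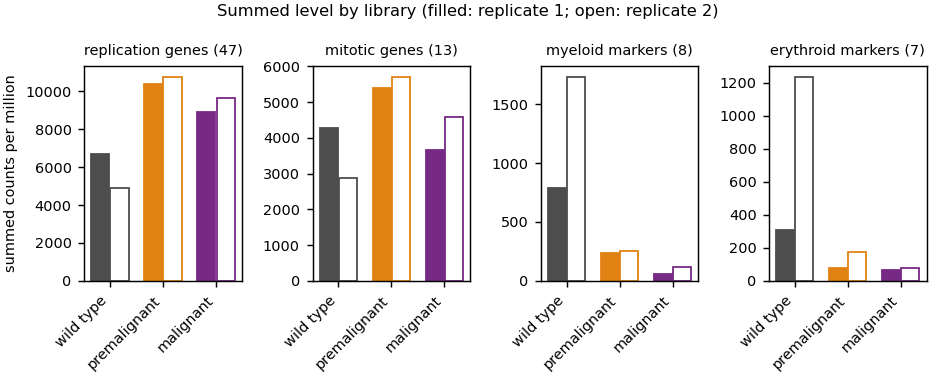
Summed CPM (y axis, linear from 0) of the 47 replication genes, 13 mitotic genes, 8 myeloid markers and 7 erythroid markers in each library, with filled bars for replicate 1 and open bars for replicate 2 of each stage. Wild type replicate 2 is lowest for the replication genes, at 4888, and highest for both marker lists.

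Most replication genes were higher in premalignant than in wild type cells. Of the 47 genes, 38 were called higher and none lower, against 19% of all tested genes called higher, 20.3% called lower and 39.3% called in all. An unadjusted p under 0.05 was found for 39 genes (44.2% of all tested genes), and DESeq2 called 39 higher and none lower (38.7% of all tested genes called). The median log2 fold change was 0.92, beside -0.08 over all tested genes, and 46 of 47 values were above 0. Both premalignant libraries lay above both wild type libraries for 45 genes and below them for none, against 36.2% and 41.2% of all tested genes. The median was 0.69 between the replicate 1 libraries and 1.16 between the replicate 2 libraries. Summed over the 47 genes, the level was 6674 and 4888 CPM in wild type and 10384 and 10783 CPM in premalignant cells, a ratio of means of 1.83. Without wild type replicate 2 the median was 0.71, beside -0.05 over all tested genes. Without premalignant replicate 1 or 2 it was 1.00 and 0.92, beside -0.08 and -0.12, with 1 library left in that stage. Fewer replication genes were called in each of these fits than with all libraries, as were fewer of all tested genes. The genes called in every fit, including each without 1 library, were Cdt1, Gmnn, Mcm5, Mcm7, Mcm8, Mcm10, Gins1, Pola2, Pold2, Pole, Pole3, Rfc2 and Lig1. The share of all tested genes called in every fit is not given here.

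Malignant cells were also above wild type. Here 34 of the 47 genes were called higher and none lower, against 24.9% and 24.3% of all tested genes and 49.2% called in all, with a median log2 fold change of 0.88 beside -0.02. An unadjusted p under 0.05 was found for 37 genes (51.8% of all tested genes), and DESeq2 called 33 higher and 1, Orc4, lower (47.6% of all tested genes called). Both malignant libraries were above both wild type libraries for 39 genes and below them for 1, Orc4, against 35.3% and 36.4% of all tested genes. The summed level was 8920 and 9629 CPM, a ratio of means of 1.60 to wild type. The genes called in every fit for premalignant cells were, among others, also called in every fit here. The share of all tested genes that were is again not given. Leaving out wild type replicate 2 gave a median of 0.72, beside 0.02 over all tested genes. Fewer replication genes were called higher in that fit, as were fewer of all tested genes. Both comparisons share the wild type libraries, so that a low wild type library enters each of them.

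Between malignant and premalignant cells none of the 47 genes was called by edgeR, against 6.18% of all tested genes, of which 3.73% were higher and 2.45% lower. DESeq2 also called none, against 12.7%, and 3 genes had an unadjusted p under 0.05, against 19.9% of all tested genes. The 3 were Pold1, Rfc3 and Top2a, with log2 fold changes of -0.45, -0.39 and -0.70. The median was -0.12 beside 0.04 over all tested genes. Both malignant libraries lay below both premalignant libraries for 19 genes and above them for 3, which were Orc6, Pola2 and Pold2, against 25.2% and 25.9% of all tested genes. The malignant libraries were also more unequal, with a median ratio of the higher to the lower library of 1.20, against 1.05 in premalignant and 1.34 in wild type cells. Without malignant replicate 2, the median was -0.24, beside -0.013 over all tested genes, with 1 library left in that stage. Gins3, Mcm8, Pold1 and Top2a were then at -0.79, -0.71, -0.68 and -0.94, Top1 at -0.9998 and Prim2 at 0.61. A lone library gives no spread of its own, so no change is read from these values.

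**Figure D2:**
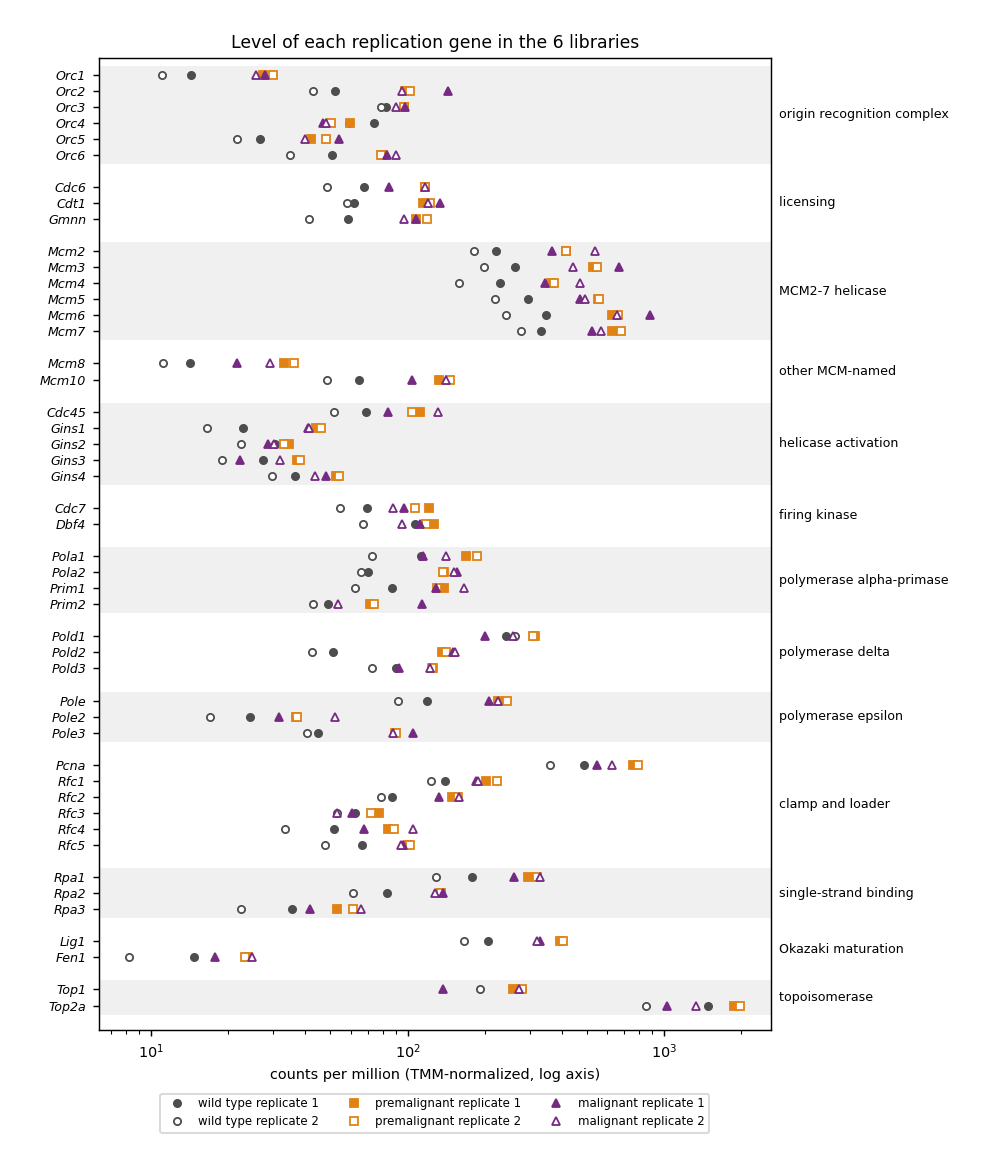
Level of each of the 47 genes (rows, grouped by role) in CPM on a log axis, with 1 symbol per library. Wild type libraries lie to the left of the premalignant ones for 45 genes, and the malignant symbols are spread more widely than the premalignant ones.

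The promoter letters were set beside these calls. Of the genes in the table, 17 of the 32 that were called higher in premalignant than in wild type cells held an E2F word, as did 4 of the 7 that were not called. For malignant against wild type cells the counts were 14 of 28 and 7 of 11. No E2F word was found for Mcm2, Mcm10, Pcna or Pold2, whose values follow.

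ORC is the complex of 6 subunits that marks origins. Of its genes, 4 were called higher in premalignant and the same 4 in malignant cells. Orc1, the largest subunit, was at 14.3 and 11.1 CPM in wild type, 27.4 and 29.8 CPM in premalignant and 27.9 and 25.7 CPM in malignant cells. The log2 fold changes of 1.17 ± 0.20 (SE, adjusted p = 0.0088) and 1.07 ± 0.20 (adjusted p = 0.0071) came from groups that did not overlap. Orc2 was at 52.0 and 42.7, 97.9 and 103, and 144 and 95.5 CPM, with the malignant replicates further apart than the wild type ones. Its log2 fold change in malignant cells was 1.34 ± 0.22 (adjusted p = 0.0054). Orc5 and Orc6 rose by between 0.89 and 1.02 in both comparisons.

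The remaining pair of ORC subunits did not pass the test. Orc3 was at 82.2 and 78.6, 96.8 and 97.2, and 98.2 and 90.1 CPM, which is 0.27 ± 0.12 and 0.23 ± 0.12 on the log2 scale. Orc4 (chromosome 2, 48758344 to 48805797) was at 73.8 and 59.1, 59.4 and 50.5, and 46.8 and 48.0 CPM. It was the one gene of the 47 with lower means at both transgenic stages and no overlap in malignant cells. Its log2 fold change of -0.49 ± 0.17 (adjusted p = 0.058) missed the fold threshold, and it was called lower with DESeq2 (-0.50), with a filter of 10 counts in every library (-0.58), with upper-quartile scaling (-0.65), with total counts alone (-0.78) and without wild type replicate 2 (-0.64). On the scale per exon length (RPKM), Orc2 stood to Orc4 at 1.36 and 1.40 in wild type, 3.19 and 3.93 in premalignant and 5.94 and 3.84 in malignant cells, a ratio chosen after the values were seen. Orc6 had the highest and Orc1 the lowest RPKM of the complex at each stage, with means of 25.8 and 2.72 in wild type. Orc1 mRNA was the scarcest of the 6 at every stage, although it was among those that rose.

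Licensing needs CDC6 and CDT1, and geminin, the product of Gmnn, holds CDT1 in check. All 3 genes rose in both comparisons. Cdt1 was at 62.0 and 58.1, 115 and 123, and 134 and 120 CPM, with log2 fold changes of 0.98 ± 0.13 (adjusted p = 0.0047) and 1.08 ± 0.13 (adjusted p = 0.0020). Gmnn was at 58.5 and 41.3, 108 and 119, and 108 and 96.8 CPM, with 1.18 ± 0.20 (adjusted p = 0.0085) and 1.04 ± 0.20 (adjusted p = 0.0080). Cdc6 was at 67.8 and 48.5, 117 and 117, and 84.4 and 117 CPM, with 1.01 ± 0.23 (adjusted p = 0.021) and 0.79 ± 0.23 (adjusted p = 0.032). For each of the 3 genes, both transgenic stages lay above both wild type libraries. Inhibitor and target were set against each other within each library. The ratio of Gmnn to Cdt1 in RPKM was 1.74 and 1.31 in wild type, 1.73 and 1.79 in premalignant and 1.49 and 1.49 in malignant cells. These ratios overlapped between wild type and either other stage (exact permutation test, two-sided, p = 0.667 and p = 1.0), and both malignant ratios were below both premalignant ones (p = 0.333, the smallest possible). The ratio of Cdt1 to Cdc6 was 2.18 and 2.86, 2.34 and 2.51, and 3.78 and 2.44, with overlap between each pair of stages.

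MCM2 to MCM7 form the hexameric ring of the replicative helicase, whose subunits are present in equal numbers. All 6 were called higher in premalignant and in malignant cells, and their summed level was 1684 and 1276 CPM in wild type, 3112 and 3230 CPM in premalignant and 3244 and 3167 CPM in malignant cells. The ratio of means to wild type was 2.14 and 2.17, and that of malignant to premalignant was 1.01. Mcm2 was at 221 and 181, 415 and 415, and 364 and 539 CPM. Mcm3 was at 263 and 198, 526 and 547, and 664 and 443 CPM. Mcm4 was at 229 and 159, 363 and 372, and 344 and 472 CPM. In these 3 genes one malignant library lay above and the other below both premalignant libraries, and it was replicate 1 that was high for Mcm3 and replicate 2 for Mcm2 and Mcm4. Mcm5 was at 296 and 219, 554 and 559, and 470 and 491 CPM. Mcm6 was at 346 and 243, 625 and 660, and 879 and 657 CPM. Mcm7 was at 331 and 276, 629 and 677, and 522 and 565 CPM. Malignant libraries were below both premalignant ones for Mcm5 and Mcm7, while malignant replicate 1 was the highest library of the 6 for Mcm6.

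The log2 fold changes of the 6 MCM genes were close to each other in premalignant cells and further apart in malignant cells. They lay between 0.92 ± 0.23 for Mcm4 and 1.22 ± 0.24 for Mcm3 in premalignant cells, with adjusted p between 0.0051 and 0.029. In malignant cells they lay between 0.84 ± 0.15 for Mcm7 and 1.38 ± 0.23 for Mcm6. On the scale per exon length the highest of the 6 mean levels exceeded the lowest by 1.43, 1.75 and 1.63 times in wild type, premalignant and malignant cells. Mcm3 was the highest and Mcm4 the lowest at each stage, at 77.1 ± 15.3 and 54.0 ± 13.8 RPKM (SD, n = 2) in wild type, at 179 ± 4.94 and 102 ± 1.65 RPKM in premalignant and at 185 ± 52.3 and 114 ± 25.2 RPKM in malignant cells. Both Mcm3 libraries were above both Mcm4 libraries at each stage, and the gap was widest against the spread in premalignant cells. The ratio of Mcm6 to Mcm7 in RPKM, chosen after the values were seen, was 1.06 and 0.891, 1.01 and 0.989, and 1.70 and 1.18.

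The relatives Mcm8 and Mcm10 are not part of this ring. Mcm8 encodes a helicase used in recombination repair, and Mcm10 a factor that helps to activate the ring. Mcm8 was at 14.2 and 11.2, 32.9 and 36.3, and 21.6 and 29.1 CPM, and Mcm10 at 64.7 and 48.3, 133 and 147, and 104 and 141 CPM. Their log2 fold changes in premalignant cells, 1.45 ± 0.22 and 1.31 ± 0.21 (adjusted p = 0.0069 and 0.0081), were above those of each ring gene, and the difference was not tested. In malignant cells they were 1.00 ± 0.22 and 1.12 ± 0.21 (adjusted p = 0.014 and 0.0083).

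Conversion of the loaded ring to a working helicase needs CDC45 and the 4 GINS subunits. Of these 5 genes, 4 were called higher in premalignant and 2 in malignant cells. Gins1 was at 22.9 and 16.5, 44.1 and 45.8, and 40.8 and 41.4 CPM, with log2 fold changes of 1.19 ± 0.19 (adjusted p = 0.0079) and 1.06 ± 0.19 (adjusted p = 0.0070). Cdc45 rose by 0.84 ± 0.25 and 0.83 ± 0.25, and its malignant replicates were at 83.7 and 131 CPM. Both of its calls were lost with total counts (0.63 and 0.54). The GINS complex holds 1 copy of each subunit, and the other 3 were not called in malignant cells. Gins3 was at 27.3 and 18.8, 37.1 and 37.9, and 22.2 and 31.8 CPM, with 1 malignant library between the wild type ones and the other above both. Its call in premalignant cells (0.70 ± 0.25, adjusted p = 0.081) was lost with either other scaling and without wild type replicate 2 or either premalignant library. Gins4 was at 36.5 and 29.5, 52.7 and 53.9, and 48.2 and 43.7 CPM, and its 0.48 ± 0.16 in malignant cells was under the fold threshold. Gins2 was at 30.5 and 22.4, 34.6 and 32.9, and 28.5 and 30.2 CPM. Gins2 shares 67.3% of its exon length with Gse1 on the opposite strand, and the library kit does not mark strand, so reads of both genes cannot be told apart there.

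CDC7 and its activator DBF4 form the kinase that fires licensed origins. Cdc7 was at 69.4 and 54.4, 121 and 107, and 97.1 and 87.5 CPM and was called higher at both stages, with 0.88 ± 0.17 (adjusted p = 0.013) and 0.58 ± 0.17 (adjusted p = 0.034). Its malignant call was lost with upper-quartile scaling (0.41), total counts (0.28) and a filter of 10 counts in every library (0.49). Dbf4 was at 107 and 66.8, 127 and 118, and 111 and 94.9 CPM. Its wild type libraries differed by more than wild type replicate 1 differed from either premalignant library, and its 0.49 ± 0.23 and 0.25 ± 0.23 did not pass the test.

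**Figure D3:**
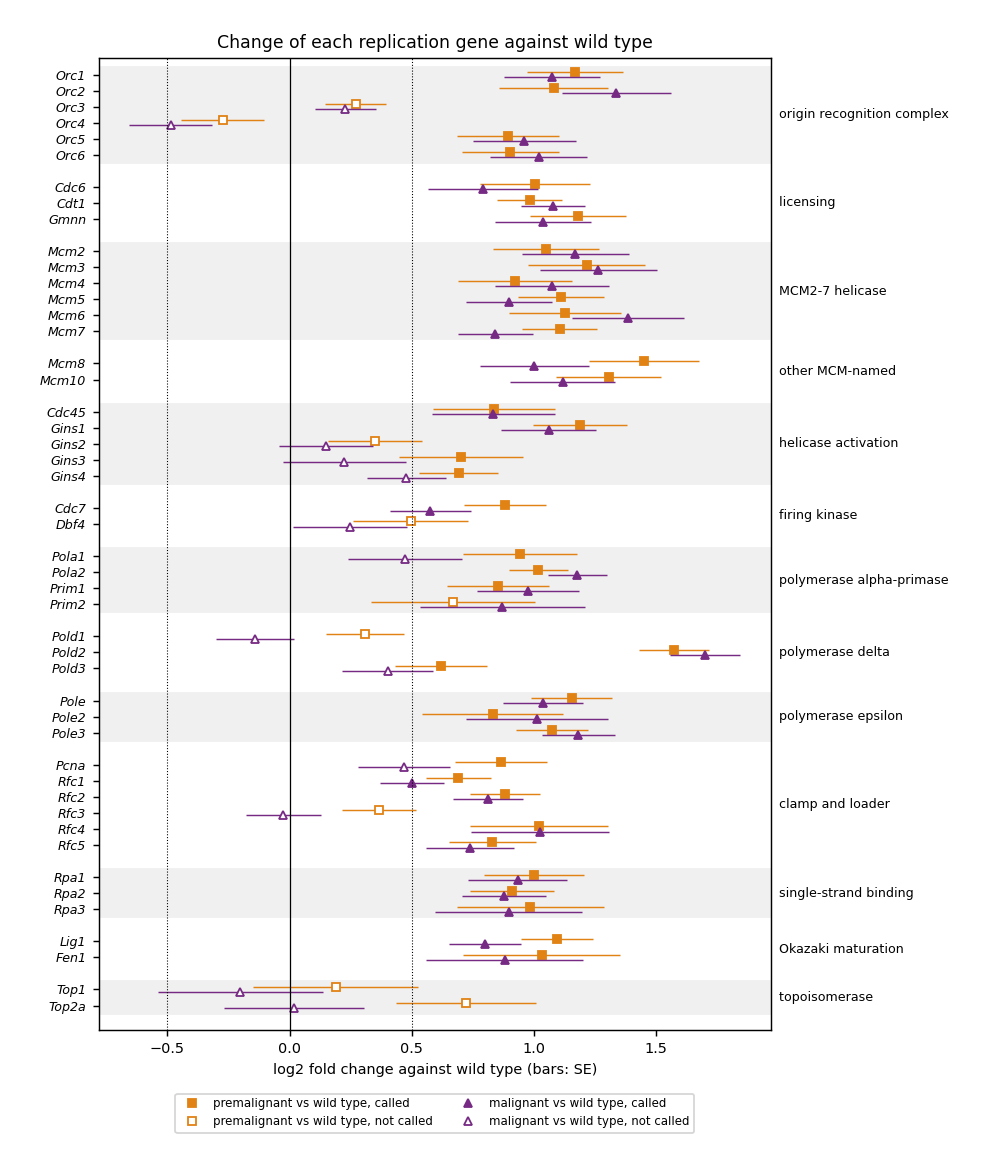
Log2 fold change of each of the 47 genes against wild type (x axis) with standard errors as bars, squares for premalignant and triangles for malignant cells, filled where the gene was called. Filled symbols number 38 and 34, all to the right of 0, and Pold2 stands furthest right at 1.57 and 1.70.

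Primers come from DNA polymerase alpha, made of a catalytic subunit (Pola1), a regulatory subunit (Pola2) and both primase subunits (Prim1 and Prim2). In premalignant cells Pola1, Pola2 and Prim1 were called higher, and in malignant cells Pola2, Prim1 and Prim2. Pola2 was at 70.4 and 65.9, 139 and 137, and 156 and 152 CPM, with log2 fold changes of 1.02 ± 0.12 (adjusted p = 0.0034) and 1.18 ± 0.12 (adjusted p = 0.0012) and replicates close together. Pola1 was at 113 and 72.4, 170 and 186, and 115 and 141 CPM, and its malignant 0.47 ± 0.23 (adjusted p = 0.15) did not pass. Prim2 was at 49.1 and 42.6, 71.5 and 74.3, and 114 and 53.6 CPM. Its malignant replicates differed by 2.13 times, the largest such difference among the 47 genes, and its call of 0.87 ± 0.34 (adjusted p = 0.080) was lost in each fit without 1 library except the one without malignant replicate 2. Without malignant replicate 1 it was 0.23. Prim1 rose by 0.85 ± 0.21 and 0.98 ± 0.21. The ratio of Pola1 to Pola2 in RPKM, chosen after the values were seen, was 0.521 and 0.358, 0.399 and 0.441, and 0.241 and 0.302, so the malignant libraries were the lowest 2 of the 6.

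Polymerase delta, which extends the lagging strand, is made of a catalytic subunit and smaller accessory ones, which differed in their changes. Pold2 (chromosome 11, 5772183 to 5778295), the regulatory subunit that joins the catalytic subunit to the others, was at 51.2 and 42.3 CPM in wild type, 137 and 141 CPM in premalignant and 150 and 153 CPM in malignant cells. Its log2 fold changes of 1.57 ± 0.14 (adjusted p = 0.0021) and 1.70 ± 0.14 (adjusted p = 0.00082) had the largest size of the 47 genes in both comparisons, and the gene was called in every fit. Pold1 (chromosome 7, 51788116 to 51804219), the catalytic subunit, was at 242 and 261, 315 and 309, and 200 and 257 CPM. Premalignant libraries were above wild type by 0.31 ± 0.16 (adjusted p = 0.18), malignant ones overlapped with wild type, and neither difference passed the test. Pold3 was at 90.4 and 72.4, 126 and 124, and 92.5 and 123 CPM and was called only in premalignant cells, with 0.62 ± 0.19 (adjusted p = 0.050).

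Pold4, the small accessory subunit, is one of 30 partner genes of the same pathway taken from a separate list, and it went the other way. It was at 63.2 and 71.2, 46.8 and 43.6, and 34.6 and 37.2 CPM, with log2 fold changes of -0.57 ± 0.14 (adjusted p = 0.028) and -0.90 ± 0.14 (adjusted p = 0.0046). On the scale per exon length the 4 mRNAs were at 51.7 ± 2.90 (Pold1), 24.7 ± 3.32 (Pold2), 19.7 ± 3.09 (Pold3) and 73.9 ± 6.25 RPKM (Pold4, SD, n = 2) in wild type. In malignant cells they were at 46.97 ± 8.28, 80.1 ± 1.11, 26.0 ± 5.15 and 39.5 ± 2.01 RPKM. The ratio of Pold2 to Pold1 was 0.544 and 0.415 in wild type, 1.11 and 1.17 in premalignant and 1.93 and 1.53 in malignant cells, and that of Pold4 to Pold2 was 2.57 and 3.51, 0.713 and 0.643, and 0.480 and 0.506. Both ratios were chosen after the values were seen, and at all 3 stages their values did not overlap (exact permutation test, two-sided, p = 0.333, the smallest possible, for each pair of stages).

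**Figure D4:**
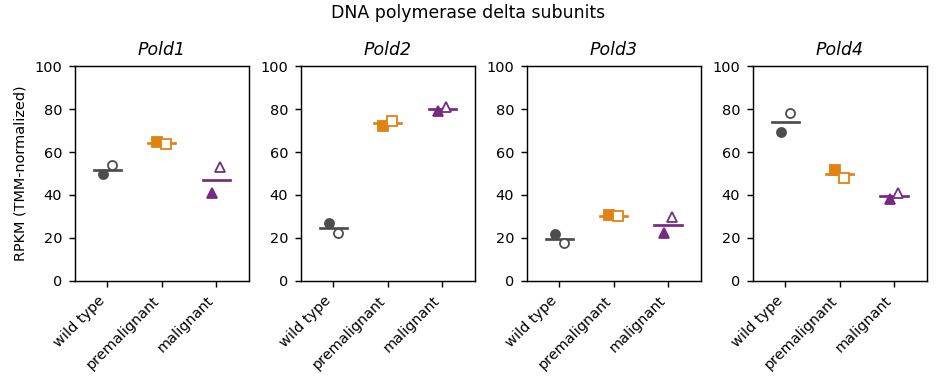
RPKM of the 4 polymerase delta subunit genes (y axis, linear from 0) by stage, with filled symbols for replicate 1, open symbols for replicate 2 and lines for means. Pold2 rises from 24.7 in wild type to 73.3 in premalignant cells, Pold4 falls from 73.9 to 49.7, and Pold1 has means of 51.7, 64.2 and 46.97.

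Polymerase epsilon, which extends the leading strand, had a single direction. All 3 of its genes were called higher at both stages. Pole, the catalytic subunit, was at 119 and 91.9, 225 and 244, and 207 and 225 CPM, with log2 fold changes of 1.15 ± 0.16 (adjusted p = 0.0056) and 1.04 ± 0.16 (adjusted p = 0.0045). Pole2 was at 24.4 and 17.0, 36.8 and 37.0, and 31.5 and 52.2 CPM, with 0.83 ± 0.29 (adjusted p = 0.073) and 1.01 ± 0.29 (adjusted p = 0.032). Its premalignant call was lost with total counts (0.62). Without wild type replicate 2 its values were 0.60 and 0.78. Pole3, a histone-fold subunit, was at 44.9 and 40.4, 89.1 and 90.5, and 105 and 88.1 CPM. For Pole, Pole2 and Pole3 both transgenic stages lay above wild type. The ratio of Pold1 to Pole in RPKM, chosen after the values were seen, was 4.02 and 5.61 in wild type, 2.77 and 2.50 in premalignant and 1.90 and 2.25 in malignant cells.

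Pcna encodes the sliding clamp that holds polymerases on DNA. It was at 489 and 360, 754 and 793, and 548 and 625 CPM, with log2 fold changes of 0.87 ± 0.19 (adjusted p = 0.019) and 0.47 ± 0.19 (adjusted p = 0.089), and only the first passed the fold threshold. Of its named pseudogenes, 1 held 1803 counts over all libraries, so reads may be divided between near-identical copies. The clamp loader is RFC, with a large subunit (Rfc1) and 4 small ones (Rfc2 to Rfc5). Rfc1, Rfc2, Rfc4 and Rfc5 were called higher at both stages, with log2 fold changes between 0.50 for Rfc1 in malignant and 1.02 for Rfc4 in either. Rfc4 was at 51.6 and 33.3, 83.6 and 88.6, and 67.8 and 105 CPM. It shares 12.65% of its exon length with Eif4a2 on the opposite strand, which held 131608 counts over all libraries, against 17621 for Rfc4. Rfc3 was at 62.5 and 53.3, 77.2 and 72.1, and 60.7 and 53.1 CPM, so that its malignant and wild type libraries overlapped. Its log2 fold changes were 0.37 ± 0.15 (adjusted p = 0.11) and -0.025 ± 0.15 (adjusted p = 0.91). Rfc1 was called in malignant cells with 0.50 ± 0.13, at the threshold, and not with DESeq2, with either other scaling or without wild type replicate 2.

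RPA, the trimer that covers single-stranded DNA, had all 3 genes called higher at both stages. Rpa1 was at 178 and 129, 296 and 318, and 259 and 327 CPM, with log2 fold changes of 1.00 ± 0.20 (adjusted p = 0.016) and 0.93 ± 0.20 (adjusted p = 0.013). Rpa2 was at 82.8 and 61.3, 136 and 135, and 137 and 128 CPM, and Rpa3 changed by 0.98 ± 0.30 and 0.90 ± 0.30. Both calls of Rpa3 were lost with total counts (0.78 and 0.61). The 3 mRNAs had nearly the same level per exon length, with means between 24.1 and 27.5 RPKM in wild type, 45.2 and 55.1 in premalignant and 44.2 and 52.5 in malignant cells. Neighbours in that order did not differ beyond their spread in wild type, where the SD were between 5.08 and 8.11 RPKM.

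Joining of lagging-strand fragments uses the flap nuclease FEN1 and DNA ligase 1. Lig1 was at 205 and 167, 392 and 402, and 327 and 320 CPM, with log2 fold changes of 1.09 ± 0.15 (adjusted p = 0.0048) and 0.80 ± 0.15 (adjusted p = 0.0075). Fen1 was counted at 14.8 and 8.24, 23.9 and 23.2, and 17.8 and 24.7 CPM, with 1.03 ± 0.32 (adjusted p = 0.054) and 0.88 ± 0.32 (adjusted p = 0.068). Both of its calls were lost with total counts (0.83 and 0.59). Its malignant call was also lost with upper-quartile scaling (0.72) and with only those stages in the fit (0.89). In the annotation, 78.8% of the exon length of Fen1 is shared with an antisense noncoding RNA, Gm10143. How the counting treated reads in shared exons is not given in the sources used here, so the level of Fen1 against other genes is uncertain.

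Neither topoisomerase gene was called. Top1 and Top2a encode the enzymes that relieve the twist ahead of the fork, and Top2a also separates chromosomes in mitosis. Top1 was at 278 and 192, 258 and 278, and 137 and 272 CPM, and its stages overlapped. Top2a (chromosome 11, 98854257 to 98885503) was at 1480 and 852, 1865 and 1977, and 1027 and 1336 CPM. Premalignant libraries were above wild type by 0.72 ± 0.29 (adjusted p = 0.10), which DESeq2 called with an adjusted p of 0.044, and malignant ones lay within the wild type range. As the highest of the 47 genes, Top2a weighs on their sum, and the topoisomerases summed to 0.633 of the premalignant mean in malignant cells while the MCM2 to MCM7 genes summed to 1.01.

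**Figure D5:**
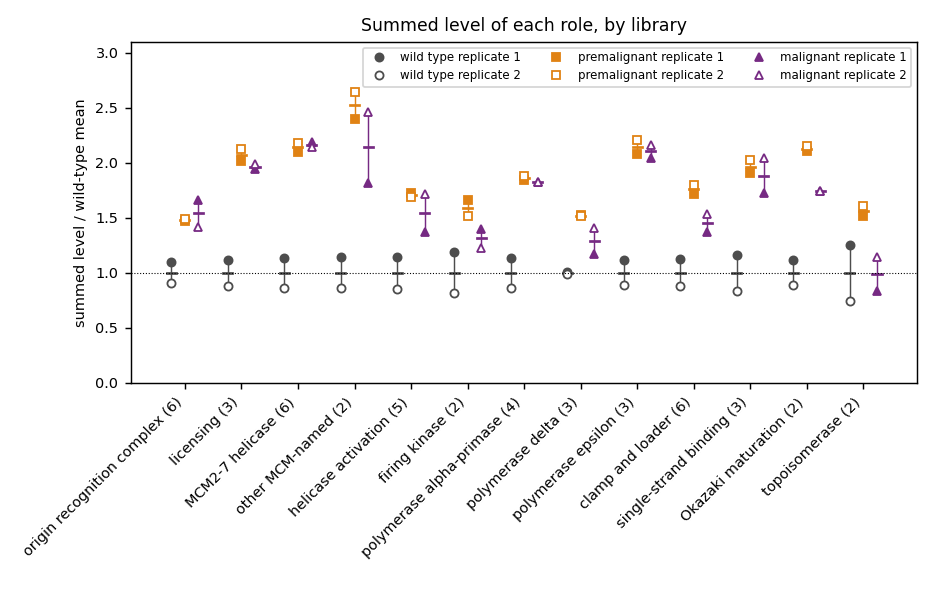
Summed CPM of each role divided by its wild type mean (y axis, linear from 0), per library, with lines between replicates and short bars at stage means, and the number of genes in brackets. The MCM2-7 helicase stands at 2.14 and 2.17 in premalignant and malignant cells, and the topoisomerases at 1.56 and 0.989.

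The 13 mitotic genes, among them Mki67, Ccnb1 and Plk1, were set beside the replication genes. In premalignant cells 8 were called higher, against 19% of all tested genes, and in malignant cells 3 (Cdk1, Aurkb and Bub1b), against 24.9%. Their summed level was 4273 and 2873 CPM in wild type, 5407 and 5720 CPM in premalignant and 3662 and 4573 CPM in malignant cells, a ratio to wild type of 1.56 and 1.15. For the replication genes these ratios were 1.83 and 1.60. Between malignant and premalignant cells none of the 13 was called by edgeR, 2 were called lower by DESeq2 and 3 had an unadjusted p under 0.05. All 13 fold changes were below 0 there, and for 11 both malignant libraries were below both premalignant ones, against 25.2% of all tested genes. The ratio of Mcm2 to Top2a in RPKM, chosen after the values were seen, was 0.401 and 0.572, 0.599 and 0.565, and 0.955 and 1.09.

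Of the 30 partner genes, which stabilise forks, load clamps, process Okazaki fragments or assemble chromatin, 29 could be matched and tested. In premalignant cells 21 were called higher and 1 lower, against 19% and 20.3% of all tested genes, and in malignant cells 20 and 1, against 24.9% and 24.3%, with median log2 fold changes of 0.74 and 0.77. The one called lower was Pold4 in both. Recql4, a helicase that acts in origin firing, was at 19.5 and 20.7, 54.1 and 50.3, and 37.8 and 62.3 CPM and had the largest change in premalignant cells, 1.38 ± 0.25 (adjusted p = 0.011). In malignant cells it was Wdhd1, which tethers polymerase alpha to the helicase, at 110 and 81.0, 222 and 208, and 345 and 268 CPM, with 1.68 ± 0.21 (adjusted p = 0.0020). Timeless, of the fork protection complex, was at 83.2 and 74.0, 155 and 162, and 196 and 216 CPM. Between malignant and premalignant cells no partner was called by edgeR or DESeq2, against 6.18% and 12.7% of all tested genes, and 3 had an unadjusted p under 0.05, against 19.9%. Fewer partners were called in premalignant cells without either premalignant library or wild type replicate 2, as were fewer of all tested genes.

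The 47 genes lie on 14 chromosomes. In the annotation, only the nearest gene on the other strand with its start upstream was considered, so genes overlapping at their starts were not counted. By this rule, 12 of the 47 start within 1000 bp of a protein-coding gene that runs the other way. Of these 12 neighbours, 4 were called higher in premalignant cells and 3 in malignant cells, against 19% and 24.9% of all tested genes, and none lower. Trmt6, 86 bp from the start of Mcm8, rose by 1.25 in premalignant cells, near the 1.45 of Mcm8, and Rars2, 13 bp from the start of Orc3, rose by 0.84 where Orc3 was at 0.27 without a call. Prkdc, 466 bp from the start of Mcm4 and known for double-strand break repair, was at 62.6 and 66.9, 76.5 and 88.5, and 59.8 and 116 CPM and was not called.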

How the data were processed

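RNA-seq was analysed from 6 libraries, 2 per stage, with stages and replicate numbers from the labels. The authors prepared libraries with an unstranded TruSeq kit, aligned 50-bp single-end reads with TopHat 2.0.8b, counted reads per Ensembl gene with HTSeq and deposited raw counts; the submitters' processing notes name mm9, CASAVA 1.8.2, Bowtie, HTSeq and DESeq. The HTSeq options and annotation are not given in the sources used here. The DEseq tables, which hold stage means, fold changes and p-values, were not used. Every row of the count files carried a gene identifier.

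Identifiers were named with GENCODE vM1 (NCBIM37, mm9); 37205 of 37991 had a symbol. The counts were fitted here with edgeR 4.0.16 (R 4.3.3): TMM factors, filterByExpr, glmQLFit and glmQLFTest on all 6 libraries with stage as the only term, and Benjamini-Hochberg adjustment over 16683 genes. The call thresholds, an adjusted p of 0.1 and a log2 fold change of 0.5 in size, were taken from the study's methods. SE is the log2 fold change divided by the square root of F. RPKM is the scaled CPM per kilobase of merged exons. TMM takes most genes as unchanged, so a change in RNA per cell would not be seen. The fitting code was run on simulated counts in which a small share of genes changed, in malignant libraries only. That run does not test the scaling under changes as wide as those found here. The alternatives were DESeq2 1.42.0, upper-quartile and total-count scaling, other filters and thresholds, fits of 2 stages, a replicate block and each library left out.

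The members and lists were chosen with earlier results of these data known. Levels in every library are given for the highest and lowest change of each role, genes not called in malignant against wild type cells, licensing genes, Pcna and MCM2 to MCM7. The lists beside the members were partners, E2F and pocket proteins, mitotic genes and markers of pre-B, mature B, T and NK, myeloid and erythroid cells; Ticrr and Ighd were not matched and are not used here.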

Additional observations from a re-analysis of the deposited data

How the results depend on the processing

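Scaling moved the level of all fold changes. With total counts alone, the median log2 fold change of all tested genes shifted by -0.21 in premalignant and -0.30 in malignant cells against wild type, and with upper-quartile scaling by -0.08 and -0.17. The share of all calls that were higher was 48.3%, 50.6% and 60.4% in the 3 comparisons with TMM and 33.7%, 35.5% and 50.7% with total counts. The median of the replication genes became 0.72 and 0.59 with total counts, 0.72 in malignant cells with upper-quartile scaling, and -0.20 with either for malignant against premalignant cells. Relative to all genes it was 1.01 and 0.90 against wild type with either scaling. Scaling moves all genes by nearly the same amount, so this difference could hardly change. With total counts 30 genes were higher in premalignant and 26 higher and 1 lower in malignant cells. Of all 16683 tested genes, 2250 were called higher and 4434 lower in premalignant cells, and 2957 and 5365 in malignant cells. A log2 fold change of 1 or more in size left 20 and 18 replication genes and 8 and 8 partners against wild type. The count over all tested genes at that size is not given here. With no filter on low counts, 1 replication gene (Top2a) and 1 partner (Wdhd1) were called between malignant and premalignant cells. Of all 26485 genes tested in that fit, 1438 were called higher and 1372 lower. Leaving out 1 library gave between 14 and 41 replication genes and between 7 and 24 partners called in premalignant cells, with a median of 0.71 to 1.16, and a median of 0.72 to 1.12 for malignant against wild type. For malignant against premalignant it gave 0 to 6 replication genes (6 without malignant replicate 2) and 0 to 5 partners, with a median of -0.24 to -0.068. A lone library left in a stage was taken to vary like the other stages.

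Changes near 0 reversed. With total counts Top1 was at -0.0202 in premalignant cells, and Orc3, Gins2, Gins3, Dbf4 and Top2a were at -0.068, -0.15, -0.066, -0.0473 and -0.27 in malignant cells against wild type. Upper-quartile scaling gave -0.017 for Gins2 and -0.14 for Top2a, and a filter of 10 counts in every library gave -0.068 for Top2a. Over the fits without 1 library, Top1 ranged from -0.051 to 0.49 in premalignant cells. In malignant cells against wild type, Gins2 ranged from -0.058 to 0.39, Gins3 from -0.032 to 0.52, Dbf4 from -0.051 to 0.63, Pold1 from -0.31 to 0.039, Rfc3 from -0.13 to 0.10, Top1 from -0.75 to 0.22 and Top2a from -0.32 to 0.48. Against premalignant cells Top1 ranged from -1.0 to 0.019. None of these genes was called in the reported fit of that comparison. The causes were not tested.

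The members that share at least 10% of their exon length with another gene were left out of the count after seeing the data. They were Fen1, Gins2, Orc2, Orc5, Rfc4 and Rfc5. This left 33 replication genes called higher in premalignant cells, against 19% of all tested genes. Leaving genes out of the list could not change the calls of the others. With the replicate number as a block, 38, 34 and 0 replication genes were called. In premalignant cells Gins3 lost its call (adjusted p = 0.11) and Dbf4 gained one (adjusted p = 0.082). Deviations of same-numbered libraries over all tested genes correlated at 0.41 for premalignant and wild type, 0.06 for malignant and wild type and 0.13 for malignant and premalignant. Over the replication genes the correlations were -0.06, -0.37 and 0.02. The labels give only a replicate number, and whether same-numbered libraries share anything else was not tested.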

Other observations

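The genes of the E2F transcription factors and of their partners and repressors were called in both directions. Of 13 such genes, premalignant cells had 4 called higher and 2 lower against wild type, beside 19% and 20.3% of all tested genes, and malignant cells 5 and 4, beside 24.9% and 24.3%. Tfdp1, the DP partner through which E2F proteins bind DNA, was at 166 and 130 CPM in wild type, 469 and 503 CPM in premalignant and 485 and 589 CPM in malignant cells, with log2 fold changes of 1.72 ± 0.18 (adjusted p = 0.0028) and 1.86 ± 0.18 (adjusted p = 0.0011). Its relative Tfdp2 was at 151 and 161, 91.5 and 97.6, and 96.0 and 49.3 CPM and was called lower in malignant cells (-1.10 ± 0.30, adjusted p = 0.027). In premalignant cells Tfdp2 was not called in the reported fit. It was called lower there with DESeq2 (-0.71), upper-quartile scaling (-0.81) and total counts (-0.93). E2f1, E2f3 and E2f4 rose at both stages, by between 0.54 and 1.14. The malignant call of E2f4 was lost with total counts (0.40). E2f6 was also called higher in malignant cells. The call of E2f6 was lost with total counts and without malignant replicate 2 (0.48) or either wild type library (1.60 and 1.05). The call of E2f1 in malignant cells was lost with upper-quartile or total-count scaling, with a filter of 10 counts in every library and without wild type replicate 2 or malignant replicate 1, and in premalignant cells with total counts and without wild type replicate 2 or either premalignant library. Rb1, the retinoblastoma repressor of E2F, was at 175 and 171, 102 and 106, and 98.6 and 94.6 CPM, and Rbl2 fell as well, by 0.52 and by 0.74. Rbl1, the other gene of this family on the list, was not called in premalignant cells. The premalignant call of Rbl2 was lost with only those stages in the fit and without wild type replicate 1, malignant replicate 2 or either premalignant library, that of Rb1 without either premalignant library, and the malignant call of Tfdp2 without wild type replicate 2. E2f2 was at 566 and 559, 555 and 591, and 337 and 359 CPM and was called lower in malignant than in premalignant cells, with -0.72 ± 0.13 (adjusted p = 0.051). That call was lost with only those stages in the fit (adjusted p = 0.11) and without either wild type or premalignant library. Mature B markers, of which 4 could be matched, were called lower in 2 cases in premalignant and 3 in malignant cells. Beside them stand 20.3% and 24.3% of all tested genes.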
